A study of Mus musculus with 17 samples.

Results

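Lcn2 (lipocalin 2) and 9 cytokine-response genes of brain endothelium, Lrg1, Osmr, Il6st, Il1r1, Tnfrsf1a, Socs3, Nfkbia, Ch25h and Upp1, were followed through RNA-seq libraries of mouse cortical microvessels, the small vessels left after homogenised cortex is spun through dextran. They are 10 of the 42687 genes of the count table, found by matching Ensembl IDs to these symbols, and all 10 were found. The genes were selected on earlier readings of these data: Lcn2 was chosen by its level in CPM, seen high in 5 WT libraries of this same table, so its levels are described here without a test. The other 9 were listed as cytokine-response genes of brain endothelium. All 10 passed the filter on low counts, which left 18753 genes for testing.

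The libraries fall into 4 groups. Samples carry only the words NOX2 or SC for their treatment, read here as inhibitor and control peptide, and each comparison of peptides rests on that reading. WT_SC holds 5 libraries of wild-type mice given sgp91-ds-tat, the control peptide. WT_NOX2 holds 5 libraries of wild-type mice given gp91-ds-tat, a peptide inhibitor of the superoxide-producing NADPH oxidase NOX2. APP_SC holds 2 libraries and APP_NOX2 holds 5 libraries of APP/PS1 mice, an amyloid model of Alzheimer's disease that carries mutant human App and presenilin 1 transgenes, given the control peptide and the inhibitor. All mice were 10 to 11 months old and were injected intraperitoneally with 10 mg/kg at intervals of 2 days over 2 weeks. The protocol mentions surgery and ipsilateral cortex in all groups, and the labels do not name the operation. Promoters of the transgenes, sex and the number of animals behind a library are not given in the sources used here. Replicate numbers only name the libraries, and p-values measure the spread between these libraries, which may be technical in part.

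As background, IL-1 and TNF act on endothelial receptors (Il1r1, Tnfrsf1a) and release NF-kB from its inhibitor, whose gene Nfkbia is itself an NF-kB target. Cytokines of the IL-6 family, such as oncostatin M, signal through gp130 (Il6st) with partners such as the oncostatin M receptor (Osmr), and activate STAT3, whose target Socs3 shuts the receptors off. Lcn2, a siderophore-binding secreted protein, and Lrg1, a secreted leucine-rich glycoprotein that modulates TGF-beta signalling in vessels, are classical acute-phase genes that endothelial cells of inflamed brain can express. Ch25h makes the oxysterol 25-hydroxycholesterol, and Upp1 splits uridine. Lcn2 is also made by neutrophils, reactive astrocytes and choroid plexus.

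Total counts were between 7316503 and 17862965 per library. App was at 1262 to 2230 CPM (counts relative to library size, with edgeR's TMM factors) in WT and 1897 to 3334 CPM in APP/PS1 libraries, and Prnp, whose promoter some APP transgenes use, at 301 to 555 and 682 to 1418 CPM. The label names endothelium, pericytes and astrocyte endfeet. All 12 endothelial, 7 pericyte and 6 astrocyte markers were detected in every library, with sums of 3139 to 5695, 1140 to 1932 and 2952 to 5092 CPM. Neuron markers summed to 2474 to 4162 CPM, so the preparations also held neuronal RNA. In such bulk libraries, fewer cells of a type and less RNA per cell cannot be told apart.

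The sequences before the RefSeq start of 4 of the genes are shown. Those of Lcn2, Socs3 and Nfkbia carry the letters of motifs bound by C/EBP, STAT and NF-kB factors. That of Lrg1 matched none of the strings searched, and other forms of such sites were not searched for. The sequences are RefSeq promoter windows on GRCm38.p6, all from the minus strand. They are cut to the bases before the annotated start that no annotated untranslated region covers. They cover chr2:32387798-32387989 for Lcn2, chr17:56122002-56122196 for Lrg1, chr11:117969367-117969616 for Socs3 and chr12:55492648-55492897 for Nfkbia. The windows of Lcn2 and Socs3 lie inside the outer bounds that GENCODE vM21 gives these genes, so they are upstream of the RefSeq start only. Capitals mark the motif.
Lcn2: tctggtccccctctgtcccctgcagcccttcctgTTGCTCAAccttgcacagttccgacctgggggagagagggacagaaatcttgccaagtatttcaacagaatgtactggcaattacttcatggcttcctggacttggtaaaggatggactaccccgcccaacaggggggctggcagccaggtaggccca
Lrg1: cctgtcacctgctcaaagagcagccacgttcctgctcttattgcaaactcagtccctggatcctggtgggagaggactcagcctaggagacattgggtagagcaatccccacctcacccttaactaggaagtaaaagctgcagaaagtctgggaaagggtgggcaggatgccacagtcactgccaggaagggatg
Socs3: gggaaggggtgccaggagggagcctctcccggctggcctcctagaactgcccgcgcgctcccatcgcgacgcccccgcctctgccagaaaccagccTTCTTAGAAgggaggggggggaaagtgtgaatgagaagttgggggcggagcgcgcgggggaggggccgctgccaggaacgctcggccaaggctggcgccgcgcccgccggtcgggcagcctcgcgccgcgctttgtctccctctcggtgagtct
Nfkbia: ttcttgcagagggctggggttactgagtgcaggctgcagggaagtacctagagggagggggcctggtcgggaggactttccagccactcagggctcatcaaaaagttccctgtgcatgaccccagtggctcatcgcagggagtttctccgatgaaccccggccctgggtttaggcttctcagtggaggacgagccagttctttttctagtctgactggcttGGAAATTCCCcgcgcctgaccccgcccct

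The motifs were chosen after the sequences were seen. The Lcn2 window holds a C/EBP half-palindrome (TTGCNNAA), the Socs3 window a STAT palindrome (TTCNNNGAA) and the Nfkbia window a match to the NF-kB consensus. Both strands were searched, in windows of 300 bases. Over the 32851 mouse promoter windows of that length, 10.8% hold TTGCNNAA, 8.298% the STAT palindrome, 8.459% the NF-kB consensus and 7.808% the AP-1 letters TGANTCA. Among the 10 genes, the C/EBP letters were found in Lcn2, Ch25h and Il1r1, the STAT letters in Socs3 and Tnfrsf1a, the NF-kB consensus in Il1r1 and Nfkbia, and TGANTCA in Upp1 and Osmr. These matches describe the sequence only.

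Lcn2 lies on chromosome 2 (GRCm38, bases 32384633 to 32388252, minus strand, GENCODE vM21). In WT_SC it stood at 56.5, 47.5, 2.13, 0.625 and 113 CPM. In WT_NOX2 it stood at 3.37, 45.2, 35.0, 3.25 and 5.13 CPM. Thus 3 of the control-peptide and 2 of the inhibitor-treated wild-type libraries were at 35.0 CPM or above, and the other 5 wild-type libraries were at or below 5.13 CPM. APP_SC held 4.73 and 4.66 CPM, and APP_NOX2 held 2.59, 3.69, 5.21, 1.27 and 2.05 CPM, so no APP/PS1 library reached the upper range. The counts behind these levels ran from 7 to 1078 reads, so even the lowest library is above the floor of 3 reads.

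The 17 libraries fell into 2 clusters on Lcn2. The largest gap between neighbouring libraries was 2.71 on the log2 CPM scale, 0.379 of the whole range, with 5 libraries above it and 12 below it. The lowest library above the gap held 6.72 times the CPM of the highest library below it. Group means were 43.9 ± 46.2 CPM (SD, n = 5) in WT_SC, 18.4 ± 20.2 (n = 5) in WT_NOX2, 4.69 ± 0.0522 (n = 2) in APP_SC and 2.96 ± 1.53 (n = 5) in APP_NOX2. On the log2 scale Lcn2 was at -2.89 in APP/PS1 against WT over both peptides, and at -1.23 in WT and -0.69 in APP/PS1 with the inhibitor against the control peptide. Without WT_SC replicate 5 the WT_SC mean was 26.7 CPM, and without WT_NOX2 replicate 2 the WT_NOX2 mean was 11.7 CPM. Both WT groups held high and low libraries, and no APP/PS1 library was above the gap.

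Lrg1 (chromosome 17, bases 56119678 to 56122001, minus strand) was high in the libraries that were high for Lcn2. It stood at 17.01, 12.4, 2.64, 2.95 and 19.2 CPM in WT_SC and at 3.18, 8.69, 10.2, 5.98 and 2.49 CPM in WT_NOX2. It stood at 10.3 and 3.24 CPM in APP_SC and at 3.41, 2.95, 6.84, 2.36 and 4.02 CPM in APP_NOX2. The 5 libraries high for Lcn2 held 8.69 to 19.2 CPM of Lrg1 and the other 12 held 2.36 to 10.3 CPM. Of those 12, 1 library, APP_SC replicate 1, was above the lowest of the 5, so APP/PS1 was not without high Lrg1.

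**Figure D1:**
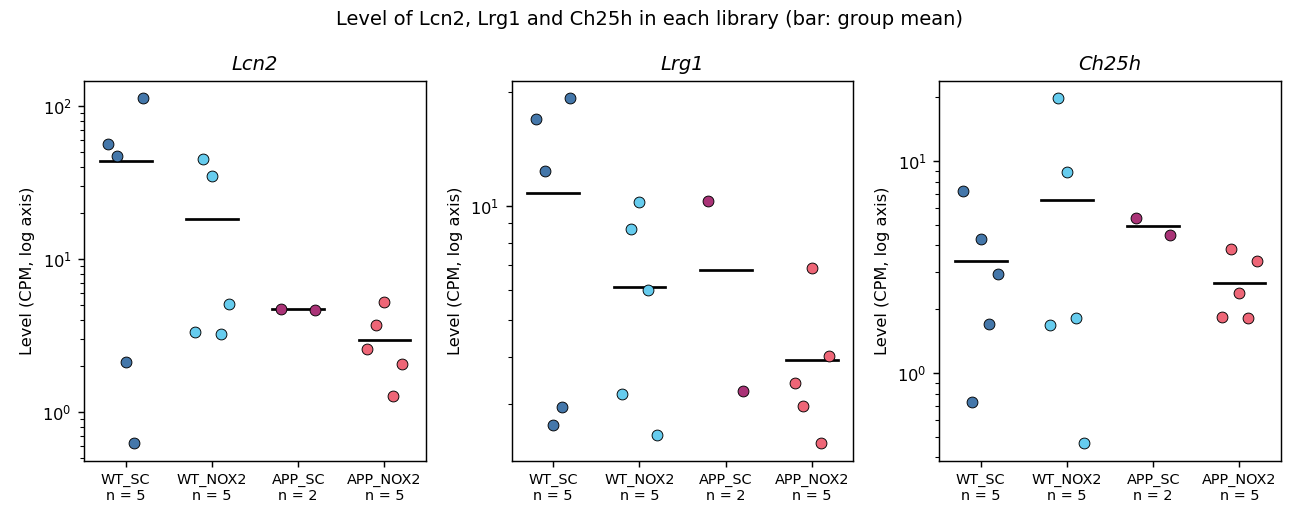
Level of Lcn2, Lrg1 and Ch25h in CPM on a log axis (vertical) for each library, by group (horizontal); points are libraries and bars are group means. For Lcn2, 3 WT_SC and 2 WT_NOX2 libraries stand at 35.0 to 113 CPM and the other 12 at or below 5.21 CPM, while the Ch25h points overlap between every pair of groups except APP_SC and APP_NOX2.

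Of 17147 genes with a symbol and a mean of at least 1 CPM, Lrg1 was the one whose log2 CPM followed Lcn2 most closely over the 17 libraries. Its Pearson r of 0.86 and Spearman rho of 0.77 serve here only to rank genes and get no p, because they largely measure the difference between the 5 and the 12 libraries, and all genes share the same libraries and depths. The next genes by Pearson r were 1700008J07Rik (0.84), Bst1 (0.82), Sorcs1 (0.82) and Zc2hc1a (0.80). The lowest were Bst2 (-0.90), the antiviral protein tetherin, Mamdc2 (-0.88) and Ints4 (-0.86). Bst2 was at 2.93 to 4.54 CPM in the 5 libraries and 5.43 to 8.84 CPM in the other 12, with no overlap. It was picked for the lowest r, which favours such a separation. 1700008J07Rik, Zc2hc1a and Mamdc2 did not overlap either, while Lrg1, Bst1, Sorcs1 and Ints4 did. The share of all genes without overlap was not counted. All 5 libraries are WT and the 12 hold every APP/PS1 library, so genotype is mixed into this contrast. Lrg1 was ranked 9 when Spearman's rho replaced Pearson's r and 7 in the 10 WT libraries alone.

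The other genes ranked far lower. Socs3 was at rank 212 (r of 0.61), Ch25h at 2397 (0.35), Osmr at 3100 (0.31), Il1r1 at 5064 (0.19), Nfkbia at 6642 (0.10), Tnfrsf1a at 11710 (-0.17) and Il6st at 15270 (-0.44), while Upp1 was below the 1 CPM limit. Within the 12 libraries below the gap, Lrg1 had a Pearson r of 0.43 with Lcn2 (permutation p = 0.154, adjusted over 18752 genes 0.915, two-sided) and a Spearman rho of 0.40 (permutation p = 0.202, adjusted 0.955). Without the 2 libraries farthest from the median of Lcn2, r was 0.32. No gene of the 18752 passed adjustment in these 12 libraries by either measure, and 982 genes (5.24%) had an unadjusted permutation p under 0.05 for Pearson's r. Of the 9 genes, 0 did. The 12 libraries were set apart by Lcn2 itself, which narrows its range, and the permutations ignored the groups. This test therefore cannot show whether a gene follows Lcn2, and no conclusion is drawn from it.

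**Figure D2:**
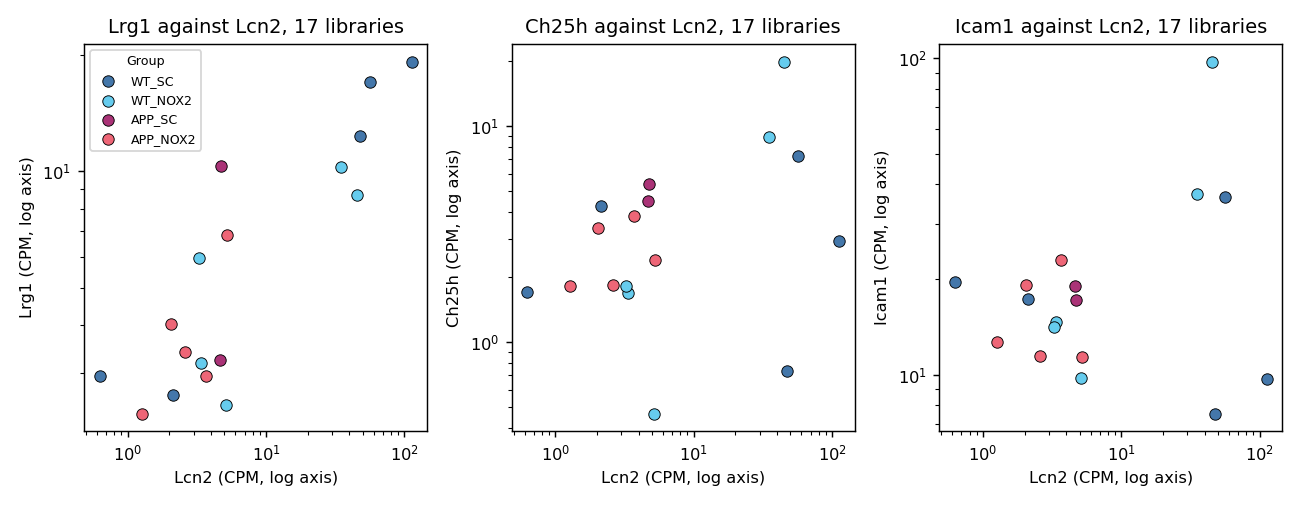
Level of Lrg1, Ch25h and Icam1 (vertical, CPM, log axis) against Lcn2 (horizontal, CPM, log axis); each point is 1 of the 17 libraries, coloured by group. Lrg1 is at 8.69 CPM or above in the 5 libraries high for Lcn2, whereas Ch25h ranges from 0.733 to 19.8 CPM and Icam1 from 7.54 to 97.6 CPM in the same 5.

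The receptors varied little. Il6st (gp130, chromosome 13, bases 112464070 to 112510086, plus strand) stood at 269, 212, 248, 350 and 231 CPM in WT_SC, at 288, 304, 255, 297 and 241 CPM in WT_NOX2, at 310 and 323 CPM in APP_SC and at 245, 348, 256, 241 and 364 CPM in APP_NOX2. The 2 APP_SC libraries lay above all 5 of WT_NOX2, and every other pair of groups overlapped. Tnfrsf1a, the main TNF receptor of endothelium, was between 27.2 and 51.9 CPM over all libraries, with group means of 36.1 ± 7.76 in WT_SC, 37.1 ± 3.46 in WT_NOX2, 39.3 ± 4.33 in APP_SC and 36.7 ± 10.4 in APP_NOX2 (SD).

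Osmr, the ligand-specific partner of gp130 for oncostatin M, stood at 95.9, 48.1, 50.1, 63.9 and 57.6 CPM in WT_SC and 50.7, 102, 73.3, 59.8 and 42.6 CPM in WT_NOX2. It stood at 84.7 and 53.3 CPM in APP_SC and 74.3, 67.1, 51.2, 50.6 and 71.0 CPM in APP_NOX2. WT_SC replicate 1 and WT_NOX2 replicate 2 were the highest, and the groups overlap. Il1r1, the signalling receptor of IL-1, was highest in WT_NOX2 replicate 2 as well, at 72.8 CPM, and between 30.7 and 67.2 CPM in the other libraries. Of the ligand genes, Il6 had 0 to 6 reads, Osm 0 to 7 and Tnf 0 to 9 in any library, against a floor of 3 reads (0.174 to 0.390 CPM over the libraries). Il1b reached 24 reads (1.56 CPM) in WT_NOX2 replicate 2 and was at 0.665 CPM or less elsewhere, and Il1a had 4 to 30 reads. Of other gp130 ligands, Lif had 3 to 31 reads and Clcf1, at 1.82 to 4.63 CPM, was the most abundant.

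Of the feedback inhibitors, Nfkbia (IkB-alpha, chromosome 12, bases 55489410 to 55492647, minus strand) stood at 107, 32.2, 43.9, 68.1 and 31.5 CPM in WT_SC and 50.2, 80.1, 101, 43.5 and 39.9 CPM in WT_NOX2. It stood at 77.2 and 51.5 CPM in APP_SC and at 45.6, 56.8, 46.5, 36.5 and 79.8 CPM in APP_NOX2. Of the 5 libraries high for Lcn2, WT_SC replicate 1 and WT_NOX2 replicates 2 and 3 were thus the 3 highest of all 17 for Nfkbia, and WT_SC replicates 2 and 5 were the 2 lowest. Socs3, the brake on gp130 signalling, stood at 10.2, 5.45, 5.69, 5.45 and 6.90 CPM in WT_SC, 4.67, 8.36, 9.78, 2.73 and 5.67 CPM in WT_NOX2, 6.13 and 7.24 CPM in APP_SC, and 5.05, 6.79, 5.97, 4.26 and 5.00 CPM in APP_NOX2. Its 3 highest libraries were the same 3.

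Among the enzymes, Ch25h (chromosome 19, bases 34473778 to 34475164, minus strand) stood at 7.23, 0.733, 4.27, 1.70 and 2.93 CPM in WT_SC and 1.68, 19.8, 8.89, 1.82 and 0.466 CPM in WT_NOX2. It stood at 5.40 and 4.49 CPM in APP_SC and 1.83, 3.84, 2.39, 1.81 and 3.36 CPM in APP_NOX2. The 3 highest libraries for Ch25h were again WT_NOX2 replicates 2 and 3 and WT_SC replicate 1, and WT_SC replicate 2, high for Lcn2, was among the 2 lowest. Upp1 was the least abundant of the 10, with 3 to 18 reads and 0.280 to 1.95 CPM per library, so its values are imprecise.

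**Figure D3:**
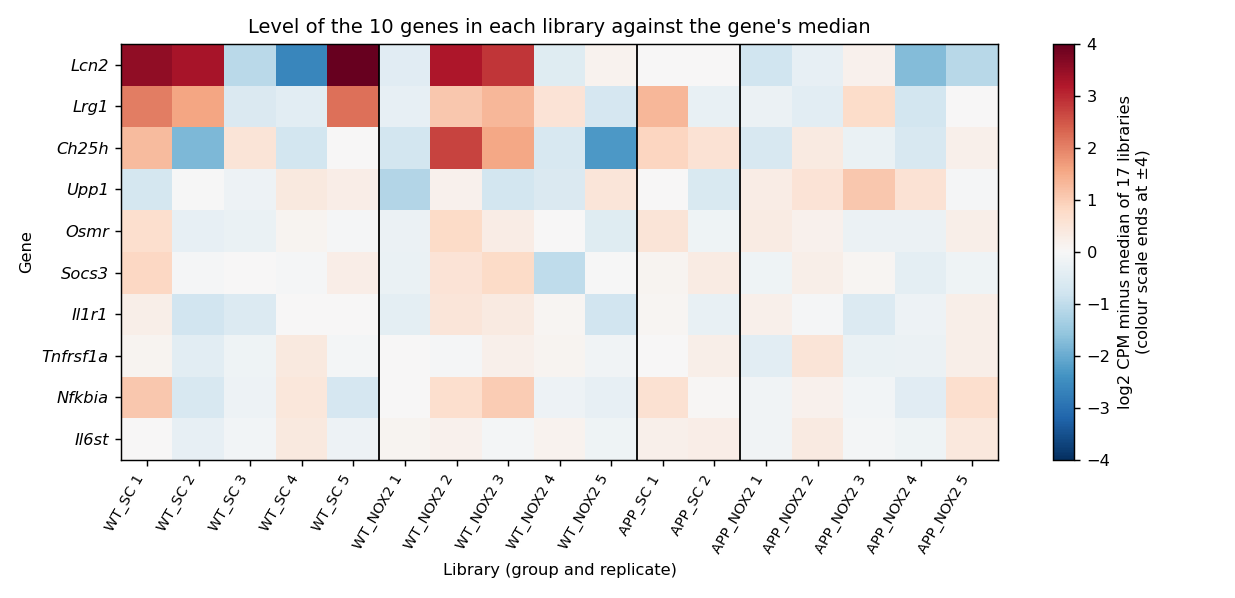
Level of the 10 genes (rows) in the 17 libraries (columns, black lines between groups), as log2 CPM minus the gene's median over the 17 libraries, with the colour scale ending at ±4. Lcn2 and Lrg1 are high in WT_SC replicates 1, 2 and 5 and WT_NOX2 replicates 2 and 3; Ch25h, Socs3 and Nfkbia are high in WT_SC replicate 1 and WT_NOX2 replicates 2 and 3.

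Per kilobase of exon, mean levels over the 17 libraries were highest for Nfkbia (36.2 ± 14.4 CPM per kb, SD) and Il6st (25.3 ± 4.15), followed by Tnfrsf1a (14.3 ± 2.65), Il1r1 (7.88 ± 2.00), Lcn2 (7.53 ± 11.7), Osmr (5.32 ± 1.42), Lrg1 (4.93 ± 3.76), Ch25h (3.08 ± 3.31), Socs3 (2.14 ± 0.658) and Upp1 (0.467 ± 0.216). The neighbours from Il1r1 to Ch25h in this order lie within their spread of each other. In WT_SC replicate 5, Lcn2 was the highest of the 10, at 43.0 CPM per kb, ahead of Il6st at 20.8 and Nfkbia at 19.6.

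None of the 9 genes other than Lcn2 passed the test for genotype. Over both peptides 0 of 9 were called by edgeR's quasi-likelihood test at an adjusted p under 0.05, against 110 of 18753 genes, or 0.587%. With the control peptide 0 of 9 were called (0.0533% of all genes) and with the inhibitor 0 of 9 (0.181% of all genes). At an unadjusted p under 0.05 the counts over all genes were 1197, 745 and 634, and over the 9 genes 0, 0 and 1. DESeq2 and limma-voom called 0 of the 9 in each of these comparisons too. Over both peptides, 4 of the 9 were higher in APP/PS1, beside 50.7% of all genes. The median log2 change of the 9 was -0.01, against a median near 0.00 over all genes.

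The intervals show what such a design could have missed. Over both peptides, the log2 change in APP/PS1 had a 95% interval of -0.35 to 0.37 for Osmr, -0.37 to 0.35 for Il1r1, -0.23 to 0.30 for Tnfrsf1a and -0.085 to 0.37 for Il6st. For the inducible genes the intervals were wider. They were -1.51 to 0.18 for Lrg1 around -0.67 (adjusted p = 0.873), -1.77 to 0.53 for Ch25h around -0.62 (adjusted p = 0.951), -0.58 to 0.27 for Socs3 and -0.61 to 0.44 for Nfkbia, each from edgeR. With the inhibitor, Upp1 had the smallest unadjusted p of the 9, at 0.0377, and its level was 0.83 ± 0.37 higher on the log2 scale (SE), with an edgeR adjusted p of 1.00.

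The inhibitor gave no call. By edgeR 0 of 9 genes and 0 of 18753 genes passed over both genotypes (0% of all genes), in WT (0%), in APP/PS1 (0%) and for the interaction of genotype and inhibitor (0%). DESeq2 and limma-voom also called 0 of all genes in these 4 comparisons. At an unadjusted p under 0.05, edgeR counted 396, 252, 338 and 158 genes. Of the 9, only Lrg1 was among the 396: over both genotypes its log2 change with the inhibitor was -0.83 ± 0.39 (SE, unadjusted p = 0.0455, edgeR adjusted p = 1.00, 95% interval -1.65 to -0.02). Its group means were 10.8 ± 7.75 CPM in WT_SC and 6.11 ± 3.37 in WT_NOX2, and 6.78 ± 5.00 in APP_SC and 3.92 ± 1.74 in APP_NOX2 (SD), with overlapping libraries.

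Ch25h was at 0.94 ± 0.67 on the log2 scale with the inhibitor in WT (SE, edgeR adjusted p = 1.00). This rested on WT_NOX2 replicate 2: without it the change was -0.11. In APP/PS1 it was at -0.90 ± 0.87, with 2 control-peptide libraries. The remaining 7 genes ranged from -0.19 (Upp1) to 0.18 (Il1r1) in WT. Without APP_SC replicate 1, the library with 10.3 CPM of Lrg1, the change of Lrg1 with the inhibitor in APP/PS1 moved from -0.84 to 0.25 and that of Osmr from -0.13 to 0.24, so both directions rest on that library.

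**Figure D4:**
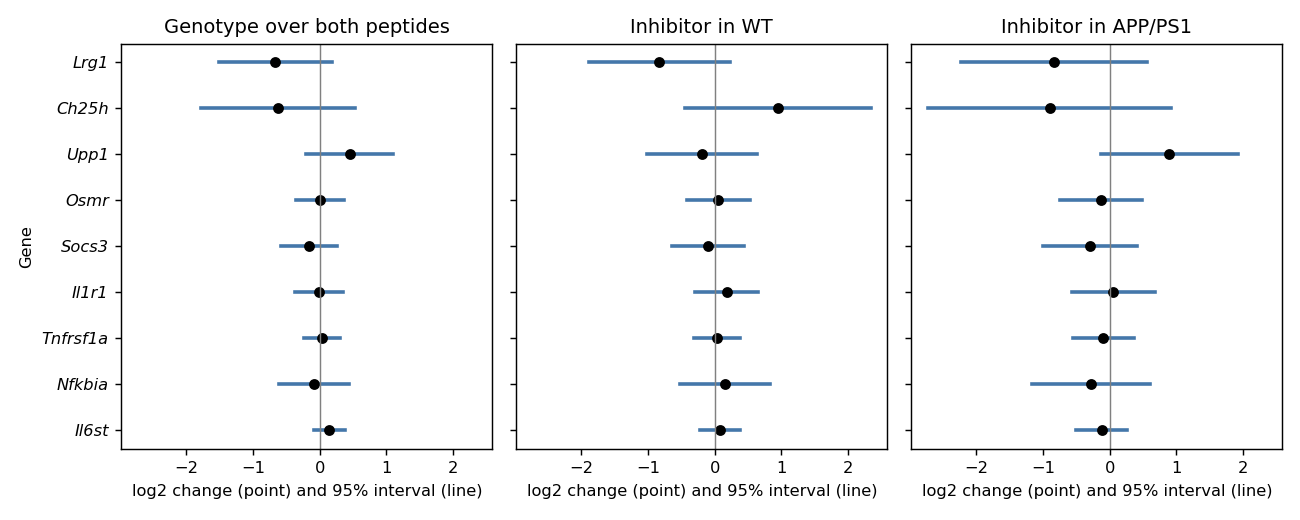
Log2 change (point) and 95% interval (line) of the 9 genes other than Lcn2 for APP/PS1 against WT over both peptides, and for inhibitor against control peptide in WT and in APP/PS1. Every interval drawn crosses 0, and Lrg1, Ch25h and Upp1 have the widest ones.

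A list of 35 other endothelial acute-phase and cytokine-response genes, 28 of which could be tested, was set beside the 10. No gene of it passed in any of the 7 comparisons. Over both peptides, 12 of its 28 tested genes were higher in APP/PS1 (median log2 change -0.02), beside 50.7% of all genes. Many of its genes peaked in WT_NOX2 replicate 2, which was the highest library for 11 of the 28 (39.3%), against 790 of all 18753 genes (4.21%), and for 3 of the 10 genes described here (Ch25h, Osmr and Il1r1). The genes named next were chosen after their values were seen. Sele (E-selectin, which tethers leukocytes) was at 27.7 CPM there and at 1.57 CPM or less in the other 16 libraries. Selp (P-selectin) was at 10.8 CPM against at most 1.16, and the neutrophil chemokine gene Cxcl1 at 9.47 against at most 1.35.

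The adhesion gene Icam1 was at 97.6 CPM in that library, at 37.2 in WT_NOX2 replicate 3 and 36.5 in WT_SC replicate 1, and at 7.54 and 9.73 CPM in WT_SC replicates 2 and 5. Cebpd, a C/EBP factor induced by cytokines, stood at 25.9, 25.1 and 25.7 CPM in the first 3 and at 7.86 and 9.52 CPM in the other two. High Lcn2 was thus seen both with high Icam1, Cebpd and Nfkbia (3 libraries) and without them (2 libraries). In those 2, Icam1 and Nfkbia were low, and Cebpd lay within the 6.76 to 18.2 CPM of the 12 libraries below the Lcn2 gap. Socs3 and Ch25h were highest in the same 3. In WT_SC replicates 2 and 5 Socs3 was at 5.45 and 6.90 CPM and Ch25h at 0.733 and 2.93 CPM, within the ranges of the 12. Serpina3n, another acute-phase gene, stood at 36.1, 23.8, 28.1, 21.0 and 19.3 CPM in the 5 libraries, in the order WT_SC replicates 1, 2 and 5 and WT_NOX2 replicates 2 and 3, and at 7.93 to 25.7 CPM in the other 12.

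**Figure D5:**
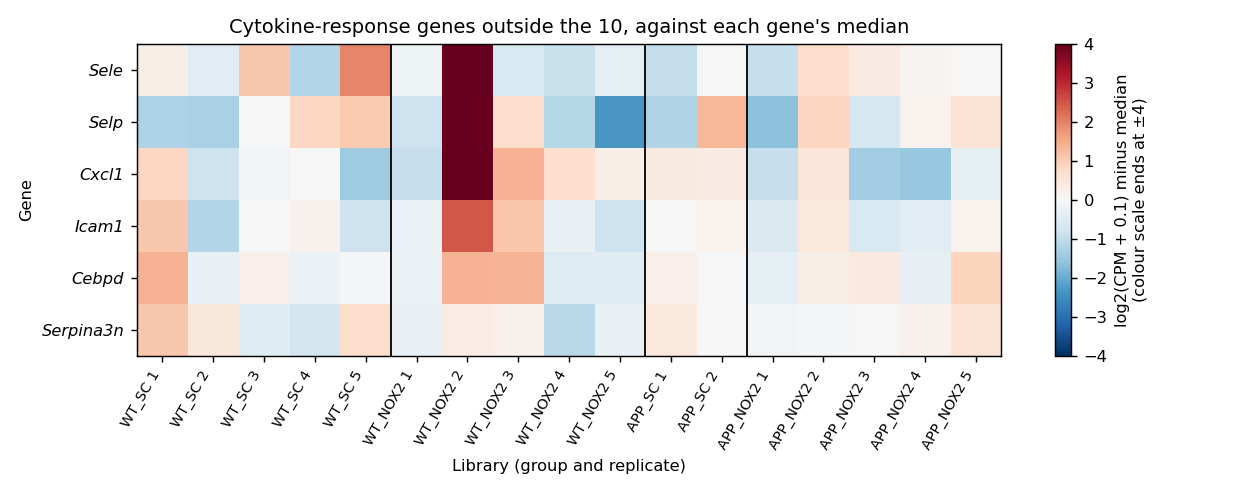
Level of 6 cytokine-response genes outside the 10 (rows) in the 17 libraries (columns), as log2(CPM + 0.1) minus the gene's median over the libraries, with the colour scale ending at ±4. Sele, Selp and Cxcl1 are highest in WT_NOX2 replicate 2, and Icam1 and Cebpd are high there, in WT_NOX2 replicate 3 and in WT_SC replicate 1, but not in WT_SC replicates 2 and 5.

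Cell type markers and library measures were compared over the same 2 sets of libraries. Choroid plexus markers, 7 of 7 detected, summed to 31.8, 167, 236 and 240 CPM in WT_SC replicates 1 and 2 and WT_NOX2 replicates 2 and 3, and to 2178 CPM in WT_SC replicate 5, the library with most Lcn2. They summed to 198 to 8187 CPM in the other 12, with a median of 3070. Among the WT libraries alone the sums did not overlap. The WT libraries low for Lcn2 held 3023 to 8187 CPM, all above the 2178 CPM of WT_SC replicate 5. The APP/PS1 libraries, all low for Lcn2, held 198 to 4786 CPM. This split was looked at after the values were seen. Of the neutrophil markers, 9 of 9 were detected in at least 1 library and up to 2 of 9 were at 0 in a library (most often Camp). They summed to 13.8 to 29.4 CPM in the 5 (at most 17.3 CPM outside WT_NOX2 replicate 2) and 9.62 to 37.8 CPM in the 12. By genotype they summed to 9.62 to 29.4 CPM in WT and 22.7 to 37.8 CPM in APP/PS1. Csf3r, most of this sum, was alone at 11.7 to 16.7 CPM in the 5 and 8.19 to 28.2 CPM in the 12. It was higher in APP/PS1 over both peptides (log2 change 1.04, edgeR adjusted p = 4.27e-05), so genotype is mixed into these sums. S100a8, S100a9, Retnlg, Cxcr2 and Mmp8 reached 3.18, 2.20, 1.62, 2.46 and 1.30 CPM in the 5, each in WT_NOX2 replicate 2. Their medians over the 5 were 0.941, 0.628, 0.418, 0.628 and 0.289 CPM. In the 12 they reached 1.83, 1.66, 0.454, 0.813 and 1.16 CPM, with medians of 0.455, 0.390, 0.248, 0.234 and 0.195 CPM. Ngp, Ltf and Camp reached 1.39, 0.629 and 0.0648 CPM in the 5 and more, 4.49, 2.49 and 0.379 CPM, in the 12. Endothelial markers summed to 3430 to 4888 and 3139 to 5695 CPM, astrocyte markers to 2987 to 4364 and 2952 to 5092 CPM, and total counts were 9356110 to 17862965 and 7316503 to 16292707. Most of the astrocyte sum was Slc1a2 (2366 to 3503 and 2389 to 3984 CPM). Gfap, on the same list, was at 42.4 to 79.7 CPM in the 5 and 40.3 to 180 CPM in the 12 (medians 49.2 and 106). Gfap was higher in APP/PS1 over both peptides (log2 change 1.20, edgeR adjusted p = 0.000125), and every APP/PS1 library is among the 12. Of the 13 marker lists, choroid plexus had the largest ratio between the sets' medians (236 against 3070 CPM), with overlap from APP/PS1 libraries only. The part of all these markers in the Lcn2 levels was not tested.

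In the signalling lists around the receptors, no gene passed in any comparison. Of 27 tested genes of gp130, JAK and STAT3 signalling, 16 were higher in APP/PS1 over both peptides (median log2 change 0.05). Over all genes 50.7% were higher. Of 29 tested genes of IL-1, TNF and NF-kB signalling, 15 were higher (median 0.01), with the smallest p for Irak2, a kinase of the IL-1 receptor complex, at 0.37 (edgeR adjusted p = 0.308). With the inhibitor in WT, 22 of 27 and 22 of 29 were higher (medians 0.08 and 0.04), as were 24 of 28 of the endothelial list (0.16) and 50.6% of all genes. WT_NOX2 replicate 2 alone was the highest library for 4 of the 27, 6 of the 29 and 11 of the 28, beside 4.21% of all genes. The counts in WT were not taken without that library. With the inhibitor in APP/PS1, 18 of 27, 16 of 29 and 9 of 28 were higher (medians 0.04, 0.02 and -0.11), beside 50.2% of all genes. For the interaction, 9 of 27, 11 of 29 and 5 of 28 were above 0, beside 49.3% of all genes. These counts are descriptions, and the genes of a list share their libraries.

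Among 11 partners of Lcn2 and Lrg1, 1 passed for genotype over both peptides, beside 110 of 18753 genes (0.587%). Tgfbr1, the type I TGF-beta receptor, rose by 0.46 ± 0.09 on the log2 scale (SE, edgeR adjusted p = 0.0142). It was at 41.0 to 63.7 CPM in WT and 64.7 to 77.4 CPM in APP/PS1, with no overlap. Slc22a17, a receptor for Lcn2, was at 278 to 495 CPM and did not pass. Among 13 tested genes around Ch25h and Upp1, 1 passed for the same comparison, beside the same 0.587% of all genes. Gpr183, the receptor for dihydroxylated oxysterols made downstream of Ch25h, rose by 1.05 ± 0.20 (SE, edgeR adjusted p = 0.0101), from 1.04 to 2.02 CPM in WT to 1.71 to 4.26 CPM in APP/PS1, with 1 APP/PS1 library inside the WT range. Microglia markers summed to 171 to 238 CPM in WT and 205 to 385 CPM in APP/PS1, and their part in both results was not tested. The call for Gpr183 was lost without APP_SC replicate 2 (adjusted p = 0.0625), and that for Tgfbr1 without APP_SC replicate 1 (0.0716) or 2 (0.0597).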

How the data were processed

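RNA of 17 microvessel libraries was analysed. The authors deposited raw counts per Ensembl gene, whole numbers without normalization. Cutadapt, STAR, HTSeq and DESeq2 and the builds mm10 and GRCh37 are named in the submitters' processing notes, with no role or version. The annotation and strand setting are not given in the sources used here, so reads of overlapping genes may be misassigned. A further 20 columns matched no sample and were not used. GENCODE vM21 gave symbols for 42250 of 42687 IDs, and 437 had none. No 2 of the 136 pairs of libraries held identical values, and the chi-square per degree of freedom within groups was 5.04 to 84.3. Each library was counted as 1 replicate, though these values cannot show that libraries come from separate animals.

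Genes were filtered with filterByExpr, scaled by TMM and tested with the quasi-likelihood F test of edgeR 4.0.16 (R 4.3.3), over all 18753 genes with Benjamini-Hochberg adjustment and a threshold of 0.05. Genotype and inhibitor over both levels of the other factor came from an additive model and the other 5 contrasts from a model of the 4 groups. Correlations used log2 CPM with a prior count of 2 and 100000 permutations. Intervals are 95% intervals from the standard error with the moderated degrees of freedom of the edgeR test. The edgeR fit was also run on simulated counts, drawn from a shared mean per gene with known folds added to some genes. Such counts do not mimic genes that are high in only some libraries of a group. DESeq2 1.42.0, limma-voom 3.58.1, other filters and scalings and leaving out each library served as alternatives. The genes and lists were chosen with earlier results of these data known. Named genes are the 10, the 5 most and 3 least like Lcn2, and in each list those past the threshold or the one with the smallest p; 1 gene that this rule names is not reported here. Sequences are from RefSeq (GRCm38.p6), where all 10 genes matched. Reads carry no molecular identifiers, so floors cover counting error only.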

Additional observations from a re-analysis of the deposited data

How the results depend on the processing

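Under 22 or 23 alternatives per result, of which 17 left out 1 library each (a fit of only the 2 groups compared exists for 4 of the 7 comparisons, and did not hold Upp1 for the inhibitor in WT), 0 of the 9 genes other than Lcn2 were called in any of the 7 comparisons, and the smallest adjusted p of any of them was 0.638. Of 1421 recomputed changes of these genes, 9 turned their direction by more than their standard error. For Ch25h, limma-voom gave 0.088 for genotype over both peptides. Leaving out 1 library at a time, the Ch25h change ranged from -0.88 to 0.063 for genotype over both peptides, from -0.45 to 0.50 for inhibitor over both genotypes and from -0.11 to 1.49 for inhibitor in WT, where the library that turned it was WT_NOX2 replicate 2. In the same fits Osmr ranged from -0.25 to 0.42 for genotype with control peptide, -0.43 to 0.24 for inhibitor in APP/PS1 and -0.48 to 0.18 for the interaction, and Lrg1 from -1.42 to 0.25 for inhibitor in APP/PS1 and -0.59 to 1.07 for the interaction, where it was APP_SC replicate 1. The lone APP_SC library is then assumed to vary like the other groups. For all genes, DESeq2 called 173, 44 and 61 for genotype over both peptides, with control peptide and with inhibitor, against 110, 10 and 34 by edgeR. The alternatives for the rank of Lrg1 and for Gpr183 and Tgfbr1 were chosen after seeing the data; the rank was 1 or 2 when any 1 library was left out. The pooled slope of each gene on Lcn2 was not run, because the libraries form 2 clusters on Lcn2. Upp1 is limited by depth, at 3 to 18 reads a library. No paired analysis was possible because the labels give no replicate numbers or animals that link libraries across groups.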
